A study of Drosophila melanogaster with 12 samples.

Results

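The effect of SOD2i was followed in Drosophila melanogaster embryos that differed in whether they also carried Drp1SG. All 12 libraries of the series were used, 6 with SOD2i and 6 without. The 6 with SOD2i were 3 replicates of SOD2i and 3 of Drp1SG;SOD2i, called the double genotype from here on, and the 6 without were 3 of Control and 3 of Drp1SG. Genes were taken from the whole table of 17868 genes, of which 9863 had enough reads to be tested. Each library came from 70 to 100 embryos, pooled over several collections kept at 28 C and picked by hand for cellularization and gastrulation in equal parts. SOD2i is understood here as a knockdown of Sod2 by RNA interference. The labels do not spell out SG, and they name no promoter, driver, hairpin or insertion site for either agent. They say that a genotype laying few eggs was collected over a longer window without ageing, but not which genotypes these were, so the window and the genotype cannot be told apart.

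Sod2 encodes the matrix enzyme of mitochondria that uses manganese to turn superoxide, which leaks from the respiratory chain, into hydrogen peroxide. Peroxiredoxins, catalase and enzymes that use thioredoxin or glutathione remove the peroxide. Drp1 is the dynamin-related GTPase that divides mitochondria. At the stages collected, the syncytial nuclei are being enclosed by membrane, maternal messages are being cleared and the first zygotic genes are being read, so a small shift in age changes many transcripts.

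Sod2 was low in every library with SOD2i. It stood at 50.6, 50.3 and 51.6 CPM in Control, where CPM is the reads of a gene per 1000000 reads of its library after scaling, and at 53.5, 46.7 and 48.3 CPM in Drp1SG. It stood at 1.76, 2.34 and 1.38 CPM in SOD2i and at 2.51, 3.54 and 3.08 CPM in the double genotype. The groups with and without SOD2i did not overlap, and the SOD2i part of each library's label held. Sod2 cannot check the Drp1SG part, as it was near one level in Control and Drp1SG. The log2 fold change was −4.80 ± 0.19 (SE) without Drp1SG and −4.02 ± 0.18 with it, with edgeR adjusted p = 2.79e-08 and 2.06e-07. The residual Sod2 level was higher with Drp1SG, as the difference between both effects was 0.78 with an edgeR adjusted p of 0.0414.

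Drp1 itself was also lower with SOD2i in both backgrounds. Its level was 35.1, 34.2 and 38.8 CPM in Control against 24.1, 23.5 and 18.6 CPM in SOD2i. In embryos with Drp1SG it was 71, 104 and 77.1 CPM alone against 43.8, 42.9 and 44.2 CPM in the double genotype. SOD2i libraries were thus below their own background each time, but the double genotype was above Control, so the 6 libraries with SOD2i overlapped the 6 without. The log2 fold change was −0.71 ± 0.14 without Drp1SG (edgeR adjusted p = 0.00335) and −0.94 ± 0.14 with it (edgeR adjusted p = 0.00126). Whether reads of a Drp1SG transgene were counted under Drp1 is not stated.

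Gene-assigned reads numbered 61757756 to 91949037 per library. Between 11001 and 11731 genes were detected, and r between same-genotype libraries (log2 CPM, across genes, which are not independent replicates) was 0.983 to 0.994. Of the 11 markers of the labelled stages, 8 were tested, among them twi, sna, fog, slam and Z600, while nullo, Sry-alpha and bnk were listed at 0 in every library. In these bulk samples fewer cells of a type and less RNA per cell cannot be told apart. The series calls its replicates biological, so p-values measure the spread between separate pools of embryos.

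Averaged over the 2 backgrounds (the main effect), 1862 genes passed an edgeR adjusted p of 0.05, which was 18.9% of those tested. Of these, 790 were higher with SOD2i (8.01% of those tested) and 1072 were lower (10.9%), and 370 changed at least 2-fold. SOD2i against Control called 2286 genes (23.2%), 1019 higher (10.3%) and 1267 lower (12.8%), a split that became 632 higher and 1435 lower with upper-quartile scaling. The double genotype against Drp1SG called 1072 genes (10.9%), 498 higher (5.05%) and 574 lower (5.82%), and 571 to 703 when any 1 library of Drp1SG or the double genotype was left out. These 2 background comparisons share no library.

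A gene was said to have moved the same way when it was called for the main effect and in each background with one sign. There were 224 such genes, 2.27% of those tested, with 120 higher (1.22%) and 104 lower (1.05%). A further 268 genes (2.72%) were called in both backgrounds with opposite signs, which was 54.5% of the 492 genes called in both. Of these 268, 145 were higher with SOD2i without Drp1SG and lower with it, and 123 the reverse. Leaving out double genotype replicate 2 gave 146 genes moved the same way and 175 with opposite signs, and leaving out Drp1SG replicate 2 gave 145 moved the same way. The 224 made up 9.8% of the genes called without Drp1SG and 20.9% of those called with it.

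The sign of an effect in one background was often not that in the other. Of the 2286 genes called without Drp1SG, 50.6% had the same sign in the other background, and of the 1072 called with Drp1SG, 47.5% did, against 53% of all tested genes. Among genes changed at least 2-fold these shares were 42.9% of 885 and 41.8% of 421. Across the 9863 genes the 2 effects had Pearson's r = −0.05 and Spearman's rho = 0.00, given as a description, since genes are not independent and share the scaling of their libraries. Of the 1862 genes called for the main effect, 1509 (81%) had one sign in both backgrounds, called or not, a share that averaging the 2 effects favours. Of the 1862, 1026 were called only without Drp1SG, 285 only with it and 262 in neither background alone. The difference between both effects was itself called for 1631 genes (16.5%), 907 (9.20%) with a more positive and 724 (7.34%) with a more negative effect in embryos with Drp1SG, and for 1013 and 465 with upper-quartile scaling.

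**Figure D1:**
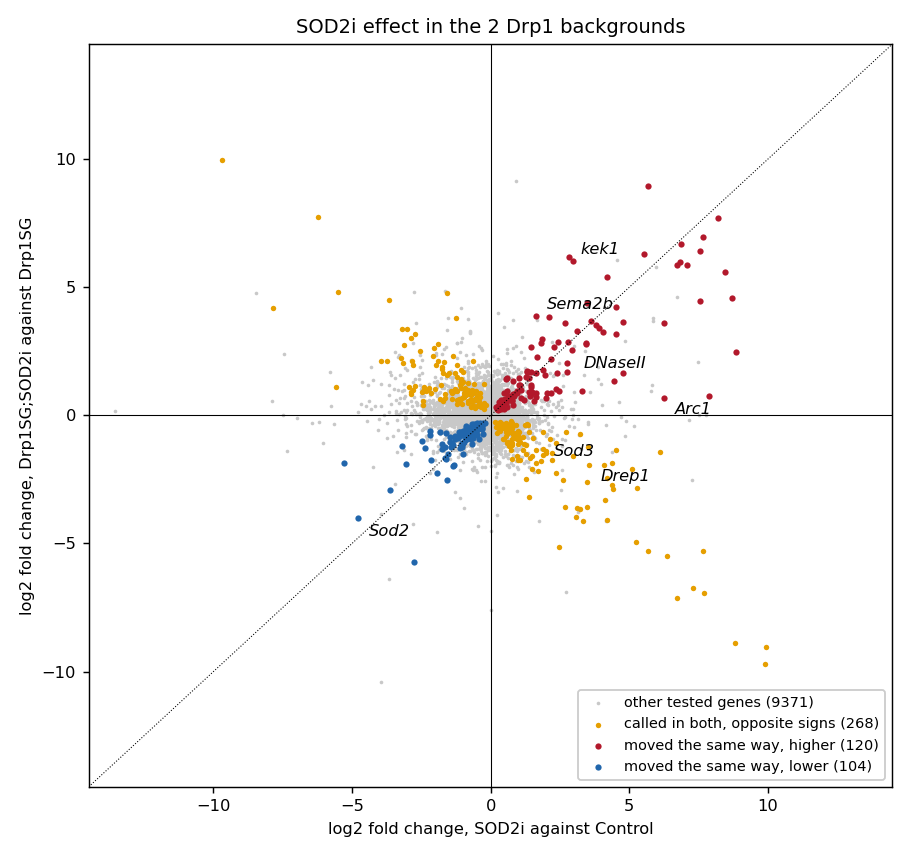
Each point is 1 of 9863 tested genes, with its log2 fold change for SOD2i against Control on the x axis and for the double genotype against Drp1SG on the y axis, and the dotted line marks equal effects. The 120 genes higher in both and the 104 lower in both lie in the upper right and lower left, and the 268 genes called in both with opposite signs lie in the upper left and lower right.

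The 224 genes share one sign in both backgrounds by their definition, while the size of the effect was free to differ. Their median absolute log2 fold change was 1.03 without Drp1SG and 0.88 with it, and 123 had the larger effect without Drp1SG. The difference between backgrounds was called for 37 of the 224 and not for 187, beside 16.5% called of all tested genes. The higher genes had a median main log2 fold change of 1.40 and the lower genes of −0.79. Of the higher genes, 10 had no read in Control or in Drp1SG, and the median remained 1.40 with these set at a floor of 3 counts per library. At least 2-fold changes in each background were seen for 61 of the higher and 29 of the lower genes. The 6 libraries with SOD2i did not overlap the 6 without for 167 of the 224 and for 406 of all tested genes (4.12%), which is a description only, since the same libraries chose the 224. The mean level was 5 CPM or more for 134 of the 224 and under 1 CPM for 40.

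Named genes are those of the 224 with at least 5 CPM on average and no overlap between libraries with and without SOD2i, ranked by main effect, 15 in each direction. The lack of overlap is thus part of how they were chosen and no result. Those that rose include DNaseII, the acid nuclease of lysosomes that digests DNA of engulfed cells. It was at 18.7, 16 and 20.8 CPM in Control and 19.1, 18.6 and 18.7 CPM in Drp1SG. It was at 137, 173 and 118 CPM in SOD2i and 115, 98.4 and 122 CPM in the double genotype. Both backgrounds thus started from one level and rose to nearly one level, with log2 fold changes of 2.95 ± 0.15 and 2.57 ± 0.14 (edgeR adjusted p = 1.32e-07 and 1.08e-06) and no call for their difference (adjusted p = 0.225). Pde8, a phosphodiesterase that breaks down cyclic nucleotides, rose from 13 to 13.5 CPM in Control to 76.5 to 108 CPM in SOD2i. In embryos with Drp1SG it rose from 18.4, 18.3 and 19.2 CPM to 73.4, 69.5 and 86.8 CPM. Its main log2 fold change was 2.39 ± 0.09 (edgeR adjusted p = 1.5e-08), larger without Drp1SG than with it by 0.71 (adjusted p of the difference 0.018).

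Among the named genes the largest main effect was that of kek1, a transmembrane protein with leucine-rich repeats that restrains the EGF receptor. It was at 42.1, 45.4 and 57.8 CPM in Control against 248, 435 and 359 CPM in SOD2i, and at 0.701, 1.56 and 1.39 CPM in Drp1SG against 81.7, 107 and 76.9 CPM in the double genotype. Drp1SG alone was below Control, and the double genotype was below SOD2i. The log2 fold change was 2.84 ± 0.26 without Drp1SG and 6.17 ± 0.32 with it, and the difference of 3.33 was called (edgeR adjusted p = 0.0001). Sema2b, a secreted semaphorin that guides axons, had the same order of genotypes. It was at 30.6, 32.9 and 37.4 CPM in Control, 4.17, 4.66 and 5.12 CPM in Drp1SG, 95.2, 127 and 94 CPM in SOD2i and 62.4, 71.7 and 73.4 CPM in the double genotype. Its effects were 1.65 ± 0.13 and 3.89 ± 0.15, with a difference of 2.25 (edgeR adjusted p = 1.01e-05). The immunoglobulin-domain proteins klg and side, the second of which steers motor axons, rose as well. klg went from 7.3 to 10.2 CPM in Control to 19.4 to 24.4 CPM in SOD2i, and from 7.64 to 10.3 CPM in Drp1SG to 18.9 to 27.9 CPM in the double genotype. Its effects of 1.39 ± 0.18 and 1.45 ± 0.18 were nearly equal in size (edgeR adjusted p = 0.000245 and 0.000433, difference 0.06 with adjusted p = 0.914). side had a main log2 fold change of 1.70 ± 0.18, and its call with Drp1SG (adjusted p = 0.0232) was lost without Drp1SG replicate 2 or 3 or double genotype replicate 1 or 3, with adjusted p up to 0.093.

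Arc1 and its neighbour on chromosome arm 2R, CR10102, rose mostly in the Control background. Arc1 encodes a protein related to retrotransposon Gag that forms capsids and carries RNA. It was at 0.682, 0.68 and 0.433 CPM in Control and at 44.2, 55.1 and 39.6 CPM in SOD2i, and at 8.15, 8.83 and 6.83 CPM in Drp1SG and 12.9, 13.1 and 12.5 CPM in the double genotype. The log2 fold change was 6.27 ± 0.21 without Drp1SG (edgeR adjusted p = 1.01e-08) and 0.69 ± 0.16 with it (adjusted p = 0.0175), a difference of −5.58 (adjusted p = 8.47e-08). The call with Drp1SG was lost without Drp1SG replicate 1 or 3 or double genotype replicate 2, with adjusted p up to 0.0712. The gene Dmel_CG8799 had a similar order, with 1.53 to 2.16 CPM in Control, 9.88 to 13 CPM in Drp1SG, 38.5 to 42.8 CPM in SOD2i and 27.9 to 29.9 CPM in the double genotype. Its effects were 4.47 ± 0.15 and 1.36 ± 0.13, both called by edgeR (adjusted p = 1.01e-08 and 5.69e-05).

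Dhit, a regulator of G-protein signalling, had a main log2 fold change of 1.52 ± 0.13, and jtb, next to Sema2b, one of 1.47 ± 0.10. For both, the effect was smaller with Drp1SG (0.87 and 0.89) than without (2.17 and 2.04). Without double genotype replicate 2 the call of Dhit with Drp1SG was lost (adjusted p = 0.05). RyR, the calcium release channel of the endoplasmic reticulum, rose from 18.9 to 22.7 CPM in Control to 49 to 61.4 CPM in SOD2i, and from 12.8 to 18.9 CPM to 24.8 to 35.3 CPM with Drp1SG, with a main log2 fold change of 1.15 ± 0.12 (edgeR adjusted p = 6.02e-05). The homeobox gene NK7.1 rose by 1.37 ± 0.11, the CELF-family RNA-binding protein bru3 by 1.21 ± 0.07 and the cap-binding paralogue eIF4E5 by 1.12 ± 0.12 on the same scale. GstD9, a Delta-class glutathione transferase, was at 10.2, 9.82 and 12.9 CPM in Control, 14.9, 14.72 and 15.1 CPM in Drp1SG, 28.6, 28.9 and 32.6 CPM in SOD2i and 25.8, 29 and 25.3 CPM in the double genotype. Its main log2 fold change was 1.14 ± 0.08 (edgeR adjusted p = 3.6e-06), and the rise was smaller with Drp1SG by 0.62 (adjusted p = 0.0218).

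**Figure D2:**
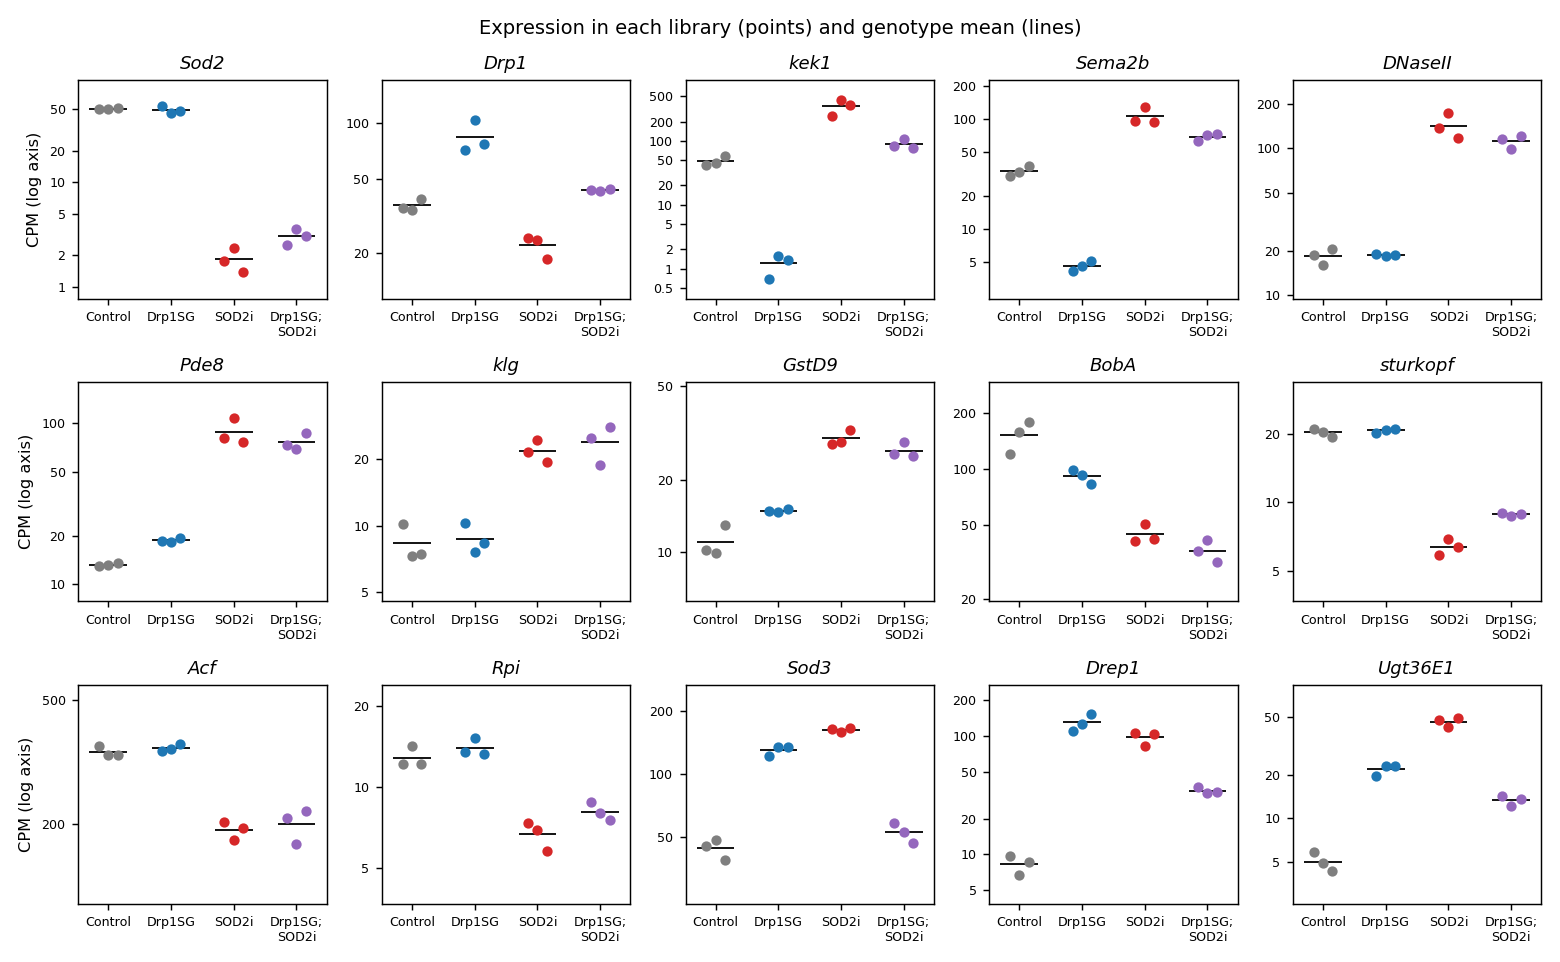
CPM on log axes in each library (points, 3 per genotype) with the genotype mean (lines) for 15 genes. In the panels from kek1 to GstD9 both genotypes with SOD2i lie above both without, in those from BobA to Rpi below both, and in Sod3, Drep1 and Ugt36E1 SOD2i lies above Control while the double genotype lies below Drp1SG.

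The genes that fell in both backgrounds did so by smaller steps. Apart from Sod2, the largest fall among the named genes was that of BobA, a Bearded-family antagonist of Notch signalling. It was at 121, 158 and 179 CPM in Control against 40.8, 50.9 and 42.2 CPM in SOD2i, and at 98.9, 92.6 and 82.6 CPM in Drp1SG against 36.1, 41.4 and 31.8 CPM in the double genotype. Drp1SG was below Control and the double genotype overlapped SOD2i. Its main log2 fold change was −1.55 ± 0.11 (edgeR adjusted p = 2.9e-06), but BobA has near-identical copies and how their reads were counted is not stated. Next was sturkopf, a hydrolase of lipid droplets, at 20.9, 20.4 and 19.4 CPM in Control, 20.2, 20.7 and 21 CPM in Drp1SG, 5.9, 6.93 and 6.39 CPM in SOD2i and 8.97, 8.72 and 8.91 CPM in the double genotype. Replicates spread little, and the main log2 fold change was −1.44 ± 0.06 (edgeR adjusted p = 5.43e-08), with the fall smaller with Drp1SG by 0.44 (adjusted p = 0.0319).

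Jhe, which breaks down juvenile hormone, fell from 8.37 to 12 CPM in Control to 3.37 to 5.71 CPM in SOD2i and from 9.48 to 12.1 CPM in Drp1SG to 4.58 to 4.92 CPM in the double genotype, with a main log2 fold change of −1.11 ± 0.14 (edgeR adjusted p = 0.0003). Rpi, the ribose-5-phosphate isomerase of the pentose phosphate pathway, was at 12.1, 14.1 and 12.1 CPM in Control, 13.5, 15.2 and 13.2 CPM in Drp1SG, 7.31, 6.9 and 5.78 CPM in SOD2i and 8.75, 7.95 and 7.51 CPM in the double genotype. The starting levels of the 2 backgrounds overlapped, and its main log2 fold change was −0.86 ± 0.09 (edgeR adjusted p = 6.02e-05). nvd, the oxygenase at the first step of ecdysone synthesis, changed by −0.88 ± 0.13 and FASN1, a fatty acid synthase, by −0.78 ± 0.15 as main effects. Their calls in a single background were fragile. That of nvd with Drp1SG was lost in 8 of 12 fits that left out a library (adjusted p up to 0.156), and that of FASN1 in 5 of 12 with Drp1SG and 3 of 12 without.

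Acf, a subunit of a chromatin remodeller abundant in early embryos, fell by almost the same step in both backgrounds. It was at 356, 332 and 332 CPM in Control and 342, 347 and 359 CPM in Drp1SG, against 202, 177 and 193 CPM in SOD2i and 209, 172 and 219 CPM in the double genotype. The effects were −0.83 ± 0.09 and −0.80 ± 0.09 (edgeR adjusted p = 4.03e-05 and 0.000137), with a difference of 0.03 (adjusted p = 0.91). CysRS, which charges cysteine tRNA, didum, the class V myosin, and na, a sodium leak channel, fell with main log2 fold changes of −0.57 ± 0.08, −0.56 ± 0.08 and −0.60 ± 0.07. Of the named genes lower in both backgrounds, na is the only X-linked gene. modSP, a serine protease upstream of Toll, fell more with Drp1SG (−0.92) than without (−0.41), a difference called by edgeR (adjusted p = 0.0285), and its call without Drp1SG was lost when that background was fitted alone (adjusted p = 0.0508).

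The other 4 named genes that fell had a weak call in at least 1 background. Uch, a ubiquitin hydrolase, fell from 40.8 to 49.3 CPM in Control to 7.82 to 13.9 CPM in SOD2i, but only from 36.4 to 43.4 CPM to 24.6 to 27.5 CPM with Drp1SG. Its log2 fold change was −2.17 ± 0.18 without Drp1SG and −0.61 ± 0.18 with it (edgeR adjusted p = 1.04e-05 and 0.0477), and the second call was lost in 15 of 22 alternatives. For Brca2, which acts in homologous recombination, and Rbpn-5, an endosomal protein, the call with Drp1SG was lost in 8 of 22, after any of the 6 libraries with Drp1SG was left out, with adjusted p up to 0.103 and 0.112. For Klp68D, a motor subunit of kinesin-2, it was lost without Drp1SG replicate 2 or 3 or double genotype replicate 2 or 3, and the call without Drp1SG was lost without Control replicate 2 or 3 or SOD2i replicate 3. Their main log2 fold changes were −1.39 ± 0.13 for Uch, −0.58 ± 0.08 for Brca2, −0.78 ± 0.13 for Rbpn-5 and −0.68 ± 0.12 for Klp68D.

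**Figure D3:**
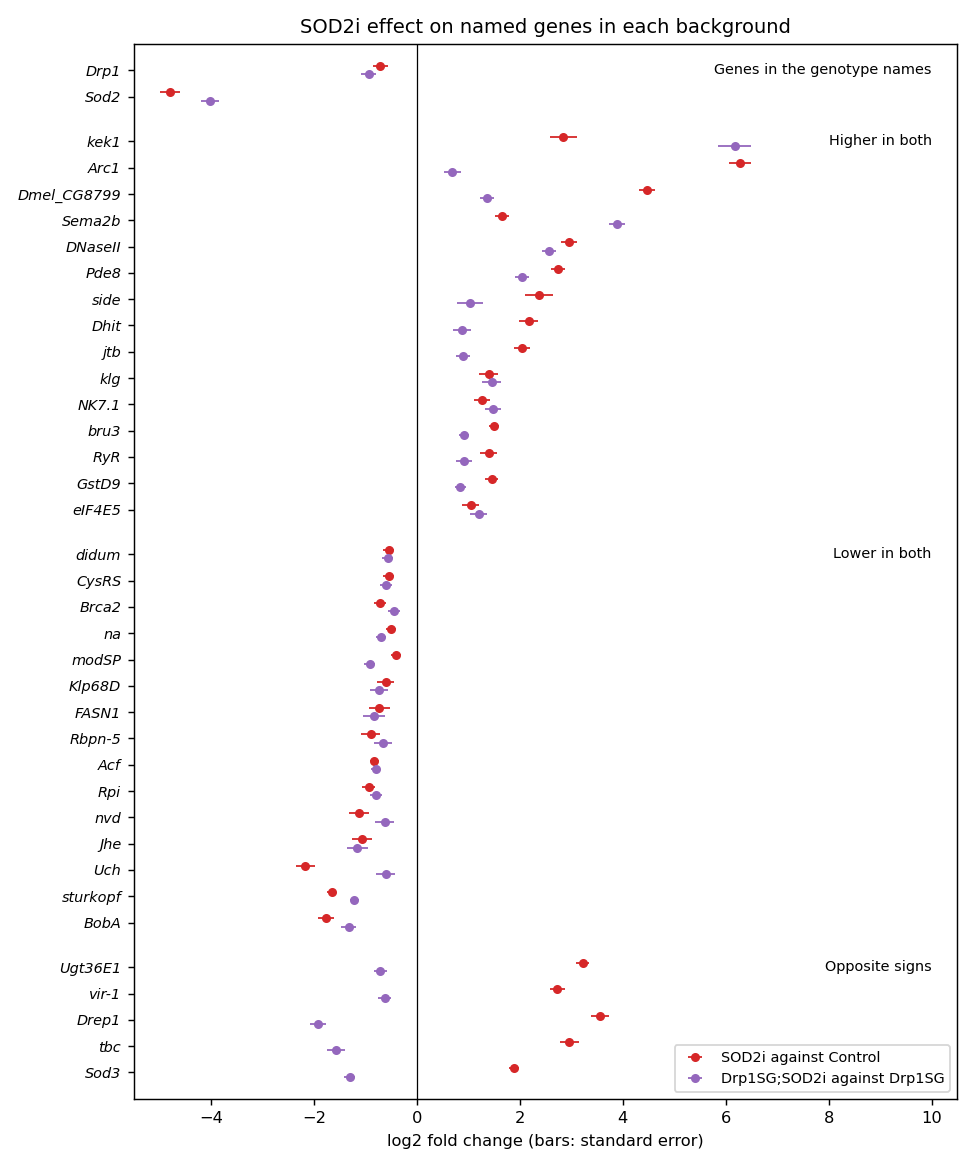
Log2 fold change with its standard error for SOD2i against Control and for the double genotype against Drp1SG, for Sod2, Drp1, the 15 named genes higher in both, the 15 lower in both and 5 called with opposite signs. Points of one row lie close for klg, NK7.1, eIF4E5, Acf and didum, far apart for kek1, Arc1 and Uch, and on different sides of 0 for the last 5.

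Of the 224 genes, 89 carry only a number as a name and many named ones lie under 5 CPM, so some outside the naming rule are given here, chosen after their values were seen. CG14186 was near 0 without SOD2i, at 0.0209 to 0.112 CPM, and rose to 12.5, 16.3 and 10.7 CPM in SOD2i and 9.32, 8.55 and 8.27 CPM in the double genotype. Its main log2 fold change of 7.32 ± 0.24 (edgeR adjusted p = 5.413e-09) was the largest among the 224 genes with a read in every genotype. Syt4, a synaptotagmin, rose from 0.111 to 0.167 CPM in Control to 5.48 to 8.41 CPM in SOD2i and from 0.0275 to 0.22 CPM in Drp1SG to 5.83 to 11.3 CPM in the double genotype. GluClalpha, a chloride channel opened by glutamate, rose from 0.491 to 0.96 CPM in Control to 3.75 to 5.45 CPM in SOD2i and from 0.954 to 1.2 CPM in Drp1SG to 4.45 to 9.59 CPM in the double genotype. Both have no overlap between libraries with and without SOD2i, and their main log2 fold changes were 5.92 ± 0.34 and 2.84 ± 0.23 (edgeR adjusted p = 6.491e-07 and 9.649e-06). SerT, the serotonin transporter, went the other way, from 1.25 to 1.76 CPM and 2.45 to 4.17 CPM without SOD2i in the 2 backgrounds to 0.406 to 0.618 CPM and 0.373 to 0.78 CPM with it.

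Some genes of higher level, also chosen after their values were seen, moved by nearly one amount in both backgrounds. EMC2A, a subunit of the complex that inserts proteins into the endoplasmic reticulum membrane, changed by 0.82 in each, and its paralogue EMC2B by 0.36 and 0.54, with all 12 libraries separated for both genes. Reads of these 2 related genes may be shared. AOX3, an aldehyde oxidase, changed by 0.94 and 0.96. It was at 43, 46.9 and 37.3 CPM in Control, 39.8, 40.9 and 43.6 CPM in Drp1SG, 72.9, 78.8 and 92.6 CPM in SOD2i and 81.5, 83.2 and 77.2 CPM in the double genotype. MetRS and TrpRS, which charge methionine and tryptophan tRNA, changed by −0.76 and −0.78 and by −0.40 and −0.48. heph, a polypyrimidine-tract RNA-binding protein, changed by −0.38 and −0.51, and nbs, of the complex that senses DNA breaks, by −0.49 and −0.36.

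Among the genes called with opposite signs, Sod3, the extracellular superoxide dismutase, was at 45.3, 48.1 and 38.7 CPM in Control and rose to 163, 159 and 165 CPM in SOD2i. With Drp1SG it was at 122, 134 and 134 CPM and fell to 58.2, 53 and 46.6 CPM in the double genotype. Each single genotype was thus above Control, and the double genotype overlapped Control. Its effects were 1.88 ± 0.10 and −1.31 ± 0.10 (edgeR adjusted p = 2.06e-07 and 1.24e-05), and the main effect of 0.29 averages over these signs. Drep1, related to the inhibitor of the apoptotic nuclease, was at 6.69 to 9.68 CPM in Control, 111 to 155 CPM in Drp1SG, 82.5 to 107 CPM in SOD2i and 32.8 to 37 CPM in the double genotype. Ugt36E1, a UDP-glycosyltransferase, tbc and vir-1, a gene induced by viral infection, were likewise above Control in both single genotypes, with the double genotype in between. Their effects were 3.22 and −0.71, 2.96 and −1.57, and 2.73 and −0.63. The main effects of all 5 are positive, and none was called in an additive model, which has no term for the difference (adjusted p from 0.266 to 0.772).

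Of 18 tested genes that remove superoxide and peroxide, Sod2 included, 1 was called higher and 6 lower for the main effect, beside 8.01% and 10.9% of all tested genes. The 1 called higher was Sod3, and 2 of the 18 had opposite signs in the 2 backgrounds, beside 2.72% of all tested genes. The list had a median log2 fold change of −0.20 against 0.00 over all tested genes. Of the 7 genes called, 2 moved the same way in both backgrounds, both lower, beside 1.05% of all tested genes, and 1 of these is Sod2 itself. The second gene besides Sod2 was the peroxiredoxin Prx2540-2. It was at 20.4, 18.8 and 23.8 CPM in Control against 8.76, 14 and 9.76 CPM in SOD2i, and at 52.6, 32.8 and 30.8 CPM in Drp1SG against 16.8, 20.3 and 20 CPM in the double genotype. It was lower in each background without overlap, with effects of −0.96 and −1.02 (edgeR adjusted p = 0.00834 and 0.0113), but it has near-identical copies. Ccs, the copper chaperone of Sod1, was lower for the main effect by −0.57 ± 0.12 and was not called with Drp1SG (adjusted p = 0.101). The cytosolic dismutase Sod1 and catalase, Cat, had main log2 fold changes of 0.14 and 0.09 that were not called (edgeR adjusted p = 0.146 and 0.263).

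The glutathione list held more genes that moved the same way upward than the other redox lists. Of 35 tested, 5 were higher and 4 lower for the main effect, beside 8.01% and 10.9% of all tested genes. Higher in both backgrounds were 4 (GstD9, GstE11, GstO3 and GstE10), beside 1.22% of all tested genes. GstE11 rose from 8.54 to 10.2 CPM in Control to 12.6 to 14.9 CPM in SOD2i and from 3.69 to 4.86 CPM in Drp1SG to 10.4 to 12.4 CPM in the double genotype (main 0.99 ± 0.09, edgeR adjusted p = 2.96e-05). GstO3 was under 0.4 CPM in every library without SOD2i and at 0.674 to 1.34 CPM in those with it. GstE10 had no read in Control, 0.267 to 1.52 CPM in SOD2i, 0.393 to 0.62 CPM in Drp1SG and 2.21 to 3.48 CPM in the double genotype, and no fold is given for it. The median of the whole list was 0.00. In the list of Keap1-cnc and JNK signalling, the oxidative stress pathways that induce such enzymes, 2 of 18 were higher, 3 lower and 0 the same way in both. These counts stand beside the same shares of all tested genes. The lower genes included crol (main log2 fold change −0.36), whose place in the list is doubtful and whose call was lost in 8 of 22 alternatives. Cytochrome P450 and UGT genes, which modify lipids and foreign compounds, had 6 of 39 higher, 4 lower and 0 the same way, beside the same shares. Of the 39, 4 had opposite signs, beside 2.72% of all tested genes.

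The list of ATF4 and mitochondrial stress response genes, not all of them ATF4 targets, had a median of −0.24. Beside 8.01% higher and 10.9% lower of all tested genes, 1 of its 20 tested members was higher and 7 were lower for the main effect. Of these, Thor, the translation repressor 4E-BP, was lower in both backgrounds, at 9.95, 11.9 and 7.69 CPM in SOD2i against 18.3, 16.1 and 19.2 CPM in Control and at 20.7, 16.4 and 22.6 CPM in the double genotype against 53.8, 33.4 and 27.1 CPM in Drp1SG. Its effects were −0.86 and −0.94 (edgeR adjusted p = 0.0209 and 0.026). The mitochondrial chaperone Hsc70-5 had a main effect of −0.34 ± 0.06 and Xbp1, a factor of the unfolded protein response, one of −0.31 ± 0.05, neither called with Drp1SG. Nuclear genes of oxidative phosphorylation had 1 of 67 higher and 3 lower, of which ND-13B, a complex I subunit, was lower in both backgrounds (−0.55 and −0.51). Of 15 mitochondrially encoded genes 3 were higher and 0 lower with TMM scaling, but 1 was higher with upper-quartile scaling. Mitochondrial dynamics had 3 of 17 lower, Drp1 among them. Iron and iron-sulfur cluster genes had 2 of 14 lower, citrate cycle genes 4 of 17 higher (2 with upper-quartile scaling), glycolysis 1 of 13 higher and 1 lower, and cytosolic heat shock genes 1 of 15 lower. In these 6 lists no gene but Drp1 moved the same way in both backgrounds.

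Among 16 apoptosis genes 3 were higher and 0 lower for the main effect, beside 8.01% and 10.9% of all tested genes. They were DNaseII, Drep1, whose 2 effects have opposite signs, and the initiator caspase Dronc, with a main effect of 0.41 ± 0.10 (edgeR adjusted p = 0.0171) that was not called with Drp1SG (adjusted p = 0.162). Of 26 lysosome and autophagy genes, a list that also holds DNaseII, 4 were higher and 0 lower, beside the same shares. DNaseII was the one that moved the same way, and Npc2a, a sterol carrier of lysosomes, had effects of 1.10 and 0.23, the second not called (adjusted p = 0.165). RNA interference genes had 1 of 17 higher and 2 lower, beside the same shares, and none moved the same way.

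**Figure D4:**
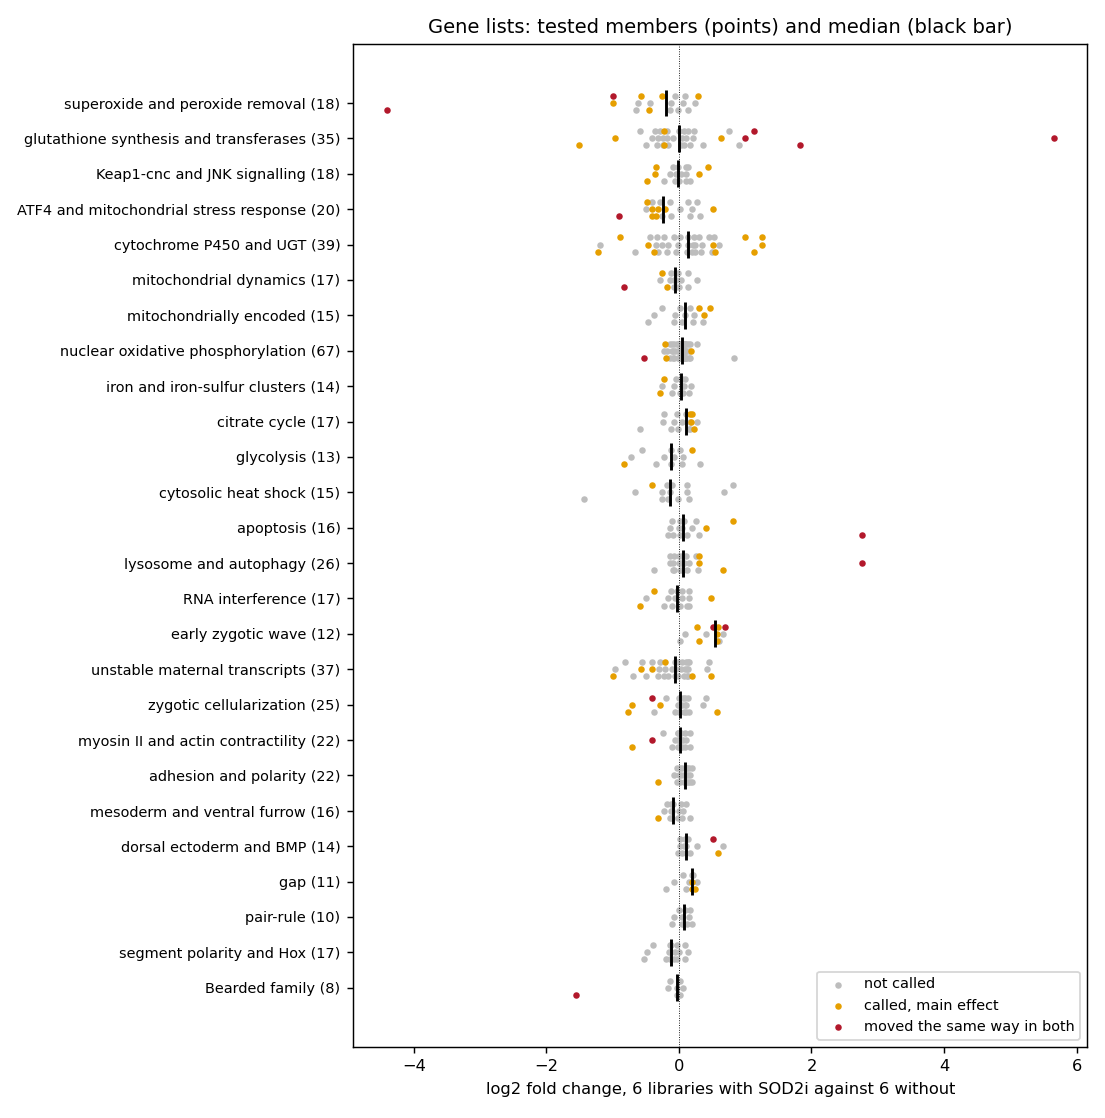
Main log2 fold change, 6 libraries with SOD2i against 6 without, of each tested member (points) of 26 gene lists, with the number tested in brackets and the list median as a black bar. Medians lie between −0.24 and 0.54, and members that moved the same way in both backgrounds are in red, where the value of GstE10 (far right) is a fit against a group at 0 reads and no bound.

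Of 12 tested genes of the early zygotic wave, 7 were higher and 0 lower for the main effect (6 and 0 with upper-quartile scaling), beside 8.01% and 10.9% of all tested genes, and 5 were not called. For these 12 the median log2 fold change was 0.54, with 0.36 without Drp1SG and 0.60 with it. Of these, tld and geko were higher in both backgrounds, beside 1.22% of all tested genes. But geko is in this list only through a synonym, gk, so its membership is doubtful, and it counts in the 7 and in the medians. The dorsal protease tld, which frees BMP ligands, was at 136, 125 and 109 CPM in Control against 147, 175 and 162 CPM in SOD2i, and at 71.8, 73 and 80.7 CPM in Drp1SG against 118, 119 and 110 CPM in the double genotype. It rose in both backgrounds by 0.39 and 0.62 (edgeR adjusted p = 0.0101 and 0.00141). The mitotic inhibitor Z600 changed by 0.36 and 0.80, called with Drp1SG and not without (adjusted p = 0.103 and 0.00532). The X-chromosome counting gene sisA changed by 0.36 and 0.26, called without Drp1SG and not with it (adjusted p = 0.00836 and 0.0736). slam and term were called for the main effect (0.57 ± 0.18 and 0.28 ± 0.09), but the calls were lost in 11 and 10 of 12 fits that left out a library.

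Of 37 unstable maternal transcripts tested, 4 were higher and 0 lower with SOD2i in the Control background, beside 10.3% and 12.8% of all tested genes. In the Drp1SG background 0 were higher and 9 lower, beside 5.05% and 5.82%, and the medians were 0.15 and −0.36. Their mean log2 CPM was 5.06 to 5.91 in Control, 6.30 to 6.64 in Drp1SG, 5.17 to 6.35 in SOD2i and 5.89 to 6.21 in the double genotype. The Drp1SG libraries were above all double genotype libraries, and Control and SOD2i overlapped. With this mean as a covariate, 421 genes moved the same way, and 211 of the 224 were among them.

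Gap genes had 3 of 11 higher (0 with upper-quartile scaling), pair-rule genes 0 of 10 and segment polarity and Hox genes 0 of 17, beside 8.01% of all tested genes. At an adjusted p of 0.05 no member of these lists moved the same way. The counts that follow stand beside 8.01% higher and 10.9% lower of all tested genes. Genes of zygotic cellularization had 1 of 25 higher and 4 lower, myosin II and actin contractility 0 of 22 and 2, and adhesion and polarity 0 of 22 and 1. Mesoderm and ventral furrow genes had 0 of 16 higher and 1 lower, and dorsal ectoderm and BMP genes 2 of 14 and 0. RhoGEF2, the exchange factor that turns on Rho1 in furrow and apical constriction, was lower in both backgrounds. It was at 115, 116 and 124 CPM in Control, 138, 129 and 129 CPM in Drp1SG, 91.3, 106 and 86.4 CPM in SOD2i and 99.4, 83.7 and 95.9 CPM in the double genotype. All libraries with SOD2i were below all without, and its effects were −0.32 and −0.50 (edgeR adjusted p = 0.0201 and 0.00406). Of 8 tested Bearded-family genes BobA alone was called, while Tom, Ocho and Brd had main log2 fold changes of −0.13, −0.03 and 0.02.

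The summed level of 6 muscle markers was 3.37 to 4.49 CPM in SOD2i and 4.25 to 6.29 CPM in Control, but 8.5 to 66.1 CPM in the double genotype and 7.24 to 15.1 CPM in Drp1SG. Of the 6, 1 was called higher with Drp1SG, beside 5.05% of all tested genes. It was Mhc, the muscle myosin heavy chain (log2 fold change 1.85). The muscle list's median log2 fold change was −0.81 without Drp1SG and 1.68 with it. Summed neuronal markers were 18.6 to 33.7 CPM with SOD2i and 17.7 to 36.1 CPM without, but single markers went both ways. For the main effect brp, of the presynaptic active zone, was higher (1.17 ± 0.13) and scrt, a zinc finger factor of neurons, was lower (−0.68 ± 0.20), and elav, a neuronal RNA-binding protein, had opposite signs (5.28 and −2.82). These main effect calls stand beside 8.01% higher and 10.9% lower of all tested genes, and the opposite signs beside 2.72%. Without Drp1SG 2 of the 6 neuronal markers were higher and 2 lower, beside 10.3% and 12.8% of all tested genes. The 12 follicle cell and yolk markers summed to 1.25 to 3.48 CPM with and 1.4 to 2.56 CPM without. The 6 hemocyte markers summed to 224 to 302 CPM with SOD2i and 222 to 251 CPM without. Of the 5 tested, 1 rose and 1 fell in both backgrounds, beside 1.22% and 1.05% of all tested genes. These were Hml (main 1.33 ± 0.18) and Pxn (main −1.25 ± 0.11), each without overlap of the 12 libraries, as for 4.12% of all tested genes. The part of the marked cell types in the results above was not tested.

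The 224 genes lay on all large chromosome arms, with 32 on 2L, 54 on 2R, 56 on 3L, 70 on 3R and 12 on X. The X held 16.1% of tested genes and 16% of its tested genes were called for the main effect, but it held 5.36% of the 224. In order along the arms (RefSeq annotation, assembly Release 6 plus ISO1 MT), 10 pairs of the 224 were direct neighbours among tested genes, and all 10 pairs moved in one direction. Examples are Sema2b with jtb, Arc1 with CR10102, CG4704 with klg, side with CG13978, CG34342 with Lkr, Adgf-E with mspo, brv2 with Mip and CG13404 with na. How often neighbours among all tested genes share a direction was not counted, so the 10 pairs have no comparison. How reads of overlapping neighbours were assigned is not stated.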

How the data were processed

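RNA was captured on poly(T) beads from 200 ng of total RNA per library. The values used here are unnormalized gene counts as deposited by the authors. Tools named in the submitters' processing notes, without roles, are featureCounts 1.5.2, HISAT2 2.1.0, Bowtie2 2.2.4, Trimmomatic and DESeq2. The genome build and strand setting are not given in the sources used here, so no coordinates are printed. The authors' normalized values and their tables against Control were not used here.

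After edgeR's filterByExpr and TMM scaling, quasi-likelihood models with 1 mean per genotype were fitted over all 12 libraries (edgeR 4.0.16, R 4.3.3). The main effect is the mean of SOD2i minus Control and double genotype minus Drp1SG. Calls are at a Benjamini-Hochberg adjusted p under 0.05 over 9863 genes, log2 fold changes carry ± SE, and CPM use TMM-scaled sizes. The SE was derived from the test, as the absolute log2 fold change over the square root of edgeR's F statistic. Counts limit precision at low levels. Counts are of reads, not molecules, so the floor of 3 counts reflects counting error only. The fit was tested on simulated counts in which 200 genes had set changes.

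Members, gene lists and tests were chosen with earlier results of these data known. Named genes were Sod2 and Drp1, then up to 15 per direction with the largest main effect among genes moved the same way with a mean of at least 5 CPM and no overlap of the 6 libraries with and 6 without SOD2i. Symbols that are only numbers were left out, and the gene Dmel_CG8799 is given by its identifier. Then came 5 genes with opposite signs and the smallest adjusted p of the difference, and up to 4 members per list with the smallest main adjusted p. Of 668 list entries 16 matched no gene, and 17827 identifiers matched RefSeq. The early zygotic list holds geko through a shared synonym. Alternatives were DESeq2 1.42.0 size factors and Wald test, upper-quartile scaling, other filters, limma 3.58.1 with voom, an additive model, each background alone, a replicate block, a maternal covariate, no mitochondrially encoded genes, and leaving out each library, where the fit pools the spread over all genotypes.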

Additional observations from a re-analysis of the deposited data

Results flagged for a closer look

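The SOD2i effect differed between embryos with and without Drp1SG for 1631 genes by edgeR's test of the difference (adjusted p under 0.05). Differences are given as the log2 effect with Drp1SG minus that without it. Among genes higher in both backgrounds the difference was 3.33 for kek1 and 2.25 for Sema2b, which rose more with Drp1SG. It was −5.58 for Arc1, −3.11 for Dmel_CG8799, −1.34 for side, −1.30 for Dhit, −1.15 for jtb, −0.71 for Pde8, −0.62 for GstD9 and −0.58 for bru3, which rose less. Among genes lower in both it was 0.78 for Sod2, 1.56 for Uch and 0.44 for sturkopf, which fell less with Drp1SG, and −0.51 for modSP, which fell more. For the genes with opposite signs it was −3.19 for Sod3, −5.49 for Drep1, −3.93 for Ugt36E1, −4.53 for tbc and −3.37 for vir-1. No rule flagged single libraries that stand apart within groups of 3, but fits without each library are given below. The mean log2 CPM of the unstable maternal transcripts was 5.06 in Control replicate 3 against 5.91 and 5.89 in the other Control libraries. It was 5.17 in SOD2i replicate 2 against 6.35 and 5.90 in the other SOD2i libraries.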

How the results depend on the processing

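None of the 171 single-gene effects that were repeated changed sign under any alternative, and of their 3752 repeats 3444 stayed called and 308 were lost. Effects within each background were not repeated for genes with opposite signs or for genes named only as list members. Genes chosen after their values were seen had no such repeats. The count of genes with a main effect was 830 in an additive model, 3293 with the maternal covariate and 370 at 2-fold or more. Genes called without Drp1SG numbered 1263 when each background was fitted alone, and those called with Drp1SG 1848, or 2443 with the maternal covariate. With that covariate the difference between backgrounds was called for 2614 genes, 421 genes moved the same way and 557 had opposite signs. Without it, 90 genes moved the same way by at least 2-fold in each background. The cause of these shifts was not tested. Leaving out each library gave 1254 to 2065 genes for the main effect, 1587 to 2369 without Drp1SG, 571 to 1261 with Drp1SG, 1250 to 1711 for the difference, 145 to 265 moved the same way and 175 to 280 with opposite signs. The count with Drp1SG fell by over 1.5 times without any single library of Drp1SG or the double genotype (571 to 703), and that of genes moved the same way without replicate 2 of Drp1SG (145) or of the double genotype (146), and that of genes with opposite signs without replicate 2 of the double genotype (175). Of the 224 genes 107 moved the same way without each library in turn, and 85 under all 22 alternatives, among them kek1, Sema2b, DNaseII, Pde8, klg, NK7.1, BobA, sturkopf, Acf, Rpi and Sod2. Same-numbered replicates did not deviate together (r −0.267 to 0.216 over 18 pairs), and with a replicate block 1577 genes had a main effect, 2095 were called without and 882 with Drp1SG, 1423 differed, 186 moved the same way and 232 had opposite signs.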
